A study of Xenopus tropicalis with 10 samples.

Results

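The genes described here build, move or switch on cilia, the hair-like organelles of the cell surface. They were the rows of the deposited table whose symbols name axonemal dynein chains and their assembly factors, radial spoke and central pair proteins, tektins, cilia and flagella associated proteins (CFAP), intraflagellar transport (IFT) proteins and Bardet-Biedl syndrome (BBS) proteins, together with the regulators FOXJ1, CCNO, RFX2 and RFX3. This choice used symbols only and gave 57 of 26550 genes. Axonemal genes made up 30 of them, in 4 roles: 16 dynein arm genes, 6 radial spoke and central pair genes, 4 tektins and 4 CFAP genes. The remainder were 2 dynein assembly factors, 13 IFT genes, 8 BBS genes and the 4 regulators. MCIDAS and TUBB4, which the choice also names, were not analysed here.

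The RNA came from tail tissue of *Xenopus tropicalis* tadpoles at stage 40, a stage at which a cut tail regrows. A first amputation gave the whole tails (2 libraries). Times are in hours post amputation (hpa), and 0 hpa (2 libraries) was the strip next to the wound this left, taken at once by a second cut of the same tadpoles. Regenerating tails were sampled once at 6 and 15 hpa, in 1 library each, and in duplicate at 24 and 72 hpa, in 2 libraries each. The labels give no strain and no drug, and the whole tail libraries carry the label control. Uncut tadpoles as old as those at 72 hpa formed no group, so hours after amputation and further development cannot be told apart. The design text describes duplicates, yet 6 and 15 hpa have 1 library each, and the sources used here do not say whether these were pooled. No label ties replicates to separate clutches or pools. Whether the differences among libraries behind the p-values measure variation between clutches is therefore not known.

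A motile cilium beats because dynein arms, attached along the microtubule doublets of its core (the axoneme), slide the doublets against each other, while radial spokes and the central pair pace the stroke. Primary cilia, the non-beating signalling cilia of many cell types, lack this machinery. Both kinds are built by IFT trains, which carry cargo along the axoneme, and the BBSome, a coat of BBS proteins, moves membrane proteins on those trains. In *Xenopus* tadpoles the skin carries multiciliated cells whose beating moves fluid over the body, and the spinal canal is lined by cells with motile cilia. FOXJ1 and RFX proteins are the transcription factors best known for switching on genes of motile cilia. The comparison of axonemal with IFT genes therefore sets genes needed mainly for beating beside genes needed to build cilia of both kinds.

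Gene reads per library ranged from 15966579 (72 hpa replicate 2) to 128768239 (6 hpa), and a count of 3 reads was worth between 0.852 and 7.29 normalised reads. A normalised read is a gene read divided by the size factor of its library, the scale the authors deposited. Such values follow gene length, so levels are compared between libraries and not between genes. A gene was tested if 2 or more libraries held 10 or more normalised reads of it, and 56 of the 57 cilia genes passed. DNAH14, a dynein heavy chain gene, held between 0 and 18 reads in any library and gets no fold change. In all 4 duplicated groups most of the 29 tested axonemal genes were higher in replicate 1 than in replicate 2: 23 in the whole tail, 28 at 0 hpa, 27 at 24 hpa and 21 at 72 hpa, against 50.4% to 52.8% of all genes tested. The median differences were widest at 0 and 24 hpa, at 0.82 and 1.097 on the log2 scale, beside 0.17 in the whole tail and 0.31 at 72 hpa. For IFT genes the 0 and 24 hpa differences were 0.29 and 0.07.

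Summed axonemal transcripts were lowest at 72 hpa and in 1 of the 24 hpa libraries, at 33.7% to 38.8% of the whole tail mean. The summed IFT transcripts stayed at 83.2% or above in every library, although single IFT genes went lower. Relative to the whole tail mean, the median IFT log2 value was -0.35 and -0.33 in the 72 hpa pair. In 24 hpa replicate 2 it was -0.41. The summed axonemal level, as a percentage of the whole tail mean, was 106.3 and 93.7 in the whole tail pair, 104.6 and 59.6 in the 0 hpa pair, 110.9 in the 6 hpa library, 75.5 in the 15 hpa library, 67.2 and 33.7 in the 24 hpa pair, and 38.8 and 33.8 in the 72 hpa pair. The summed IFT level on the same scale was 95.8 and 104.2 in the whole tail, 98.2 and 83.2 in the 0 hpa pair, 100.2 in the 6 hpa library, 86.3 in the 15 hpa library, 89.6 and 84.1 in the 24 hpa pair, and 92.1 and 88.5 in the 72 hpa pair. The 3 lowest axonemal sums were thus those of 24 hpa replicate 2 and both 72 hpa libraries. Taken singly, 21 of the 29 tested axonemal genes had their 3 lowest values in these libraries. That follows in part from the choice, since the sums of the same genes picked the libraries. The share of all genes with this order was not computed. In a tissue sample, fewer ciliated cells and less RNA per ciliated cell cannot be told apart.

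**Figure D1:**
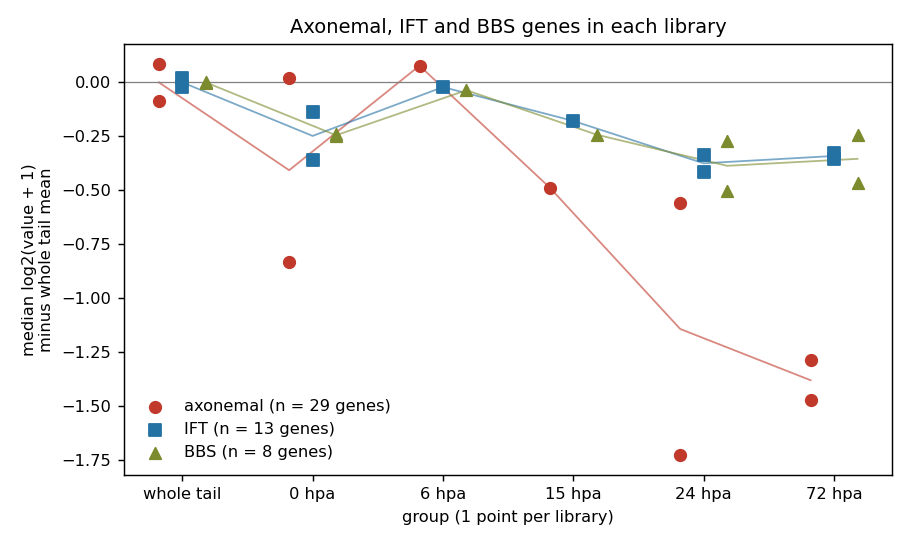
Median log2(value + 1) of axonemal (29 genes), IFT (13 genes) and BBS (8 genes) transcripts in each library, relative to the mean of the whole tail libraries. Each point is 1 library and lines join group means; the axonemal points reach -1.73 at 24 hpa and -1.29 and -1.47 at 72 hpa, while the IFT points stay between -0.41 and 0.02.

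The regulators were examined first. FOXJ1, the forkhead factor that switches on motile cilia genes, stood at 1109 and 843 normalised reads in the whole tail, 1619 and 848 in the 0 hpa pair, 1403 in the 6 hpa library, 675 in the 15 hpa library, 593 and 467 in the 24 hpa pair, and 472 and 306 in the 72 hpa pair. Every library from 15 hpa on lay below every library up to 6 hpa. FOXJ1 fell between 0 and 72 hpa by 1.62 on the log2 scale (SE 0.364, limma adjusted p = 0.043), a 3.08-fold lower value. Against the whole tail the 72 hpa groups did not overlap either, with a log2 fold change of -1.34 (SE 0.364), and limma's adjusted p of 0.06 missed the threshold of 0.05.

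RFX2, a winged-helix factor of ciliary genes, ranged from 1871 (72 hpa replicate 2) to 3952 (0 hpa replicate 1) normalised reads. Its 72 hpa mean was 2156 ± 402 (SD, n = 2), while that of the whole tail was 3093 ± 853 (SD, n = 2), with a log2 fold change of -0.51 (95% interval -1.13 to 0.12, limma adjusted p = 0.28). RFX3, its paralogue, was counted low throughout, between 18.3 and 109.9, and its 72 hpa pair of 61.2 and 55.9 overlapped the whole tail pair of 58.4 and 109.9. CCNO, a cyclin-like protein needed to multiply centrioles in multiciliated cells, stood at 67.7 and 142.5 in the whole tail, 76.8 and 53.1 in the 0 hpa pair, 36.9 in the 6 hpa library, 77.6 in the 15 hpa library, 10.9 and 44.4 in the 24 hpa pair, and 25.4 and 34.0 in the 72 hpa pair. The 24 and 72 hpa libraries were all below the whole tail pair, but the fitted differences (-2.09 and -1.71) were not called (limma adjusted p = 0.19 and 0.17).

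Comparing 72 hpa tails with whole tails asks how tails after 72 h of regrowth differed from tails removed whole. The fit paired no tadpoles, and the part of the tail sampled may differ between the groups. This comparison called 13 of 56 cilia genes, against 9.29% of all genes tested (limma, Benjamini-Hochberg adjusted p under 0.05). All 13 were axonemal; 12 of 29 axonemal genes fell (4.68% of all genes did) and 1 rose (4.61% of all genes did). The median axonemal log2 fold change was -1.48, beside 0.00 over all genes tested. Values of 26 of the 29 lay wholly below the whole tail pair, which held for 27.5% of all genes. The plot of fold changes by role gives every tested cilia gene.

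**Figure D2:**
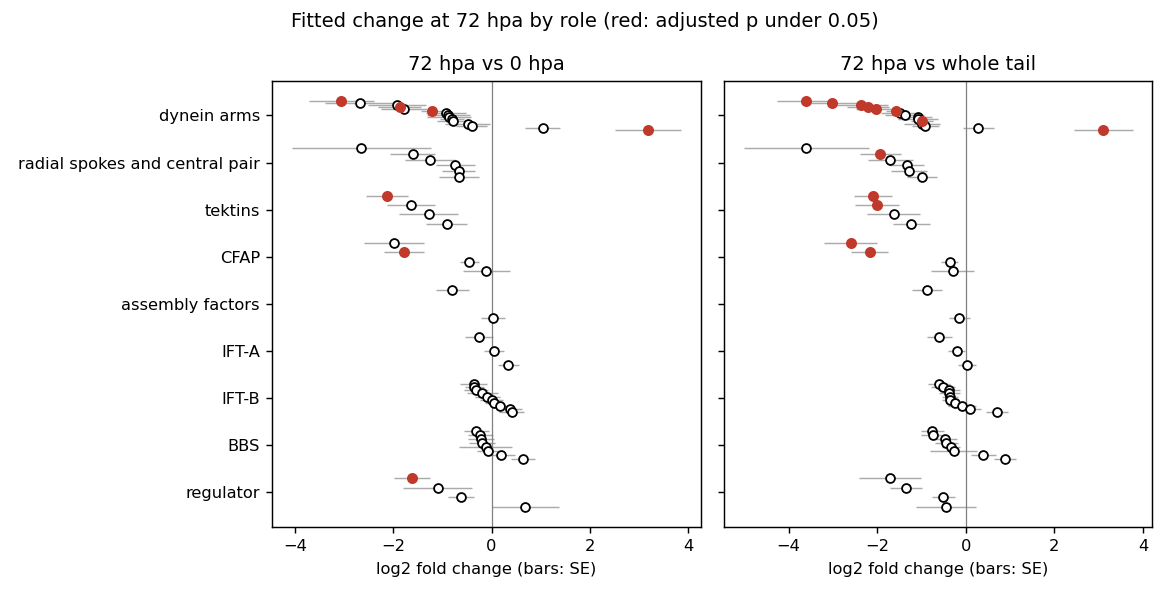
Fitted log2 fold change with its standard error (bars) for each tested cilia gene at 72 hpa, by role, against 0 hpa (left) and the whole tail (right). Red points have adjusted p under 0.05; all IFT, BBS and assembly factor points are open and lie between -0.88 and 0.88, while called axonemal points reach -3.61.

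Among the called genes, dynein arm genes had the largest falls. DNAH3, an inner-arm heavy chain, stood at 1063 and 954 normalised reads in the whole tail, 1081 and 431 in the 0 hpa pair, 1009 in the 6 hpa library, 833 in the 15 hpa library, 753 and 185 in the 24 hpa pair, and 90.9 and 72.9 in the 72 hpa pair. Both 72 hpa libraries were below every other one, and the fall from the whole tail was 12.2-fold (log2 fold change -3.61, SE 0.659, limma adjusted p = 0.019). DNAH9, a heavy chain of the outer arm, which supplies much of the power of the beat, stood at 1966 and 1709.55 in the whole tail, 2248 and 923 in the 0 hpa pair, 1789 in the 6 hpa library, 1232 in the 15 hpa library, 1316 and 277 in the 24 hpa pair, and 267 and 187 in the 72 hpa pair. Its 24 hpa replicate 2 was close to the 72 hpa pair while replicate 1 was close to the 15 hpa library. DNAH9 fell 8.17-fold against the whole tail (log2 fold change -3.03, SE 0.699, limma adjusted p = 0.038).

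DNAL1, a light chain of the outer arm, had a smaller fold change with a smaller standard error. It stood at 779 and 670.3 normalised reads in the whole tail, 616 and 507 in the 0 hpa pair, 774 in the 6 hpa library, 473 in the 15 hpa library, 365 and 312 in the 24 hpa pair, and 224 and 262 in the 72 hpa pair. Its groups from 24 hpa on lay below all earlier libraries. Its fall from the whole tail had the smallest adjusted p among the cilia genes (log2 fold change -1.57, SE 0.235, limma adjusted p = 0.011). DNAL4, a further light chain and the dynein arm gene of highest mean value, went from 2005 ± 46.6 in the whole tail to 1004 ± 47.4 at 72 hpa (SD, n = 2 each; limma adjusted p = 0.047).

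Of the inner-arm heavy chains, DNAH1 fell from 1493 ± 97.1 to 336 ± 132 and DNAH6 from 1374 ± 207 to 333 ± 41.0 (SD, n = 2 each; limma adjusted p = 0.03 and 0.031). DNAH10, another inner-arm heavy chain, fell from 1762 ± 528 to 335 ± 30.6 (SD, n = 2 each; limma adjusted p = 0.049), the call closest to the threshold. The other dynein arm genes with lower values were not called: DNAH2, DNAH5, DNAH7, DNAH12, DNAI2 and DNALI1 had log2 fold changes between -1.48 and -0.92. Of these, DNAH5, an outer-arm heavy chain like DNAH9, had the value nearest 0, with a 95% interval from -1.64 to -0.20.

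A pair of dynein genes went another way. DNAH11-LIKE.2 stood at 19.5 and 21.7 normalised reads in the whole tail, 33.7 and 10.99 in the 0 hpa pair, 19.0 in the 6 hpa library, 13.7 in the 15 hpa library, 45.1 and 25.2 in the 24 hpa pair, and 264.6 and 128.8 in the 72 hpa pair. Both 72 hpa libraries were above all others, and the gene rose 8.61-fold against the whole tail (log2 fold change 3.11, SE 0.668, limma adjusted p = 0.031). DNAH11-LIKE.1 was highest at 15 hpa (326) and in 72 hpa replicate 1 (325), and its 72 hpa pair overlapped the whole tail pair of 187 and 205. Both symbols denote copies similar to DNAH11, an outer-arm heavy chain gene; the sources used here do not say how reads shared between such copies were counted, so these values are uncertain.

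**Figure D3:**
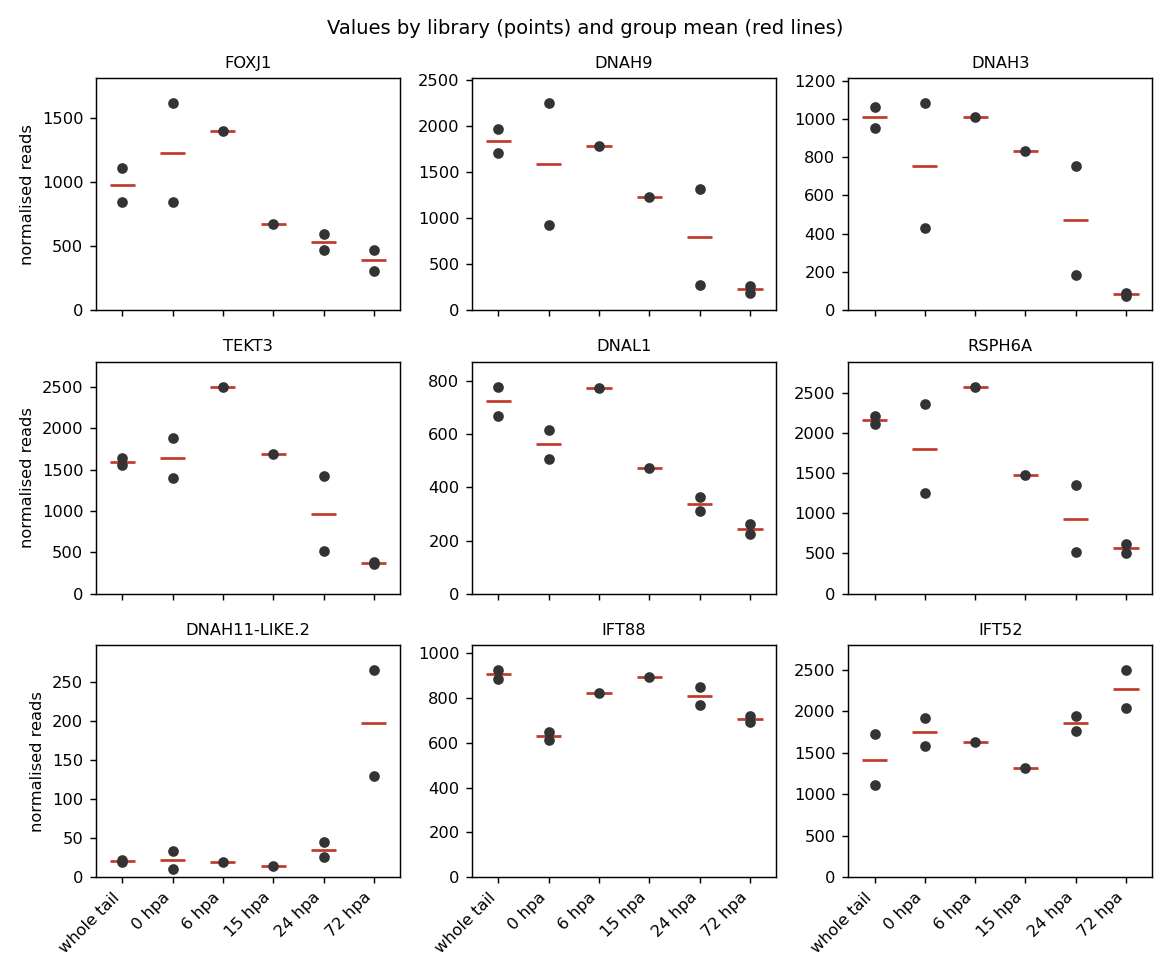
Normalised reads of 9 cilia genes in each library (points) with group means (red lines); the 6 and 15 hpa groups hold 1 library. DNAH3 falls to 72.9 and 90.9 at 72 hpa and DNAH11-LIKE.2 climbs to 128.8 and 264.6, while IFT88 stays between 612 and 925.

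Radial spoke and central pair genes all had lower values at 72 hpa. RSPH6A, a spoke head protein, stood at 2206 and 2103 normalised reads in the whole tail, 2357 and 1249 in the 0 hpa pair, 2572 in the 6 hpa library, 1477 in the 15 hpa library, 1348 and 518 in the 24 hpa pair, and 621 and 510.4 in the 72 hpa pair. It fell 3.82-fold against the whole tail (log2 fold change -1.93, SE 0.46, limma adjusted p = 0.042) and was the called gene of its role. RSPH3 and RSPH9, of the spoke stalk and head, RSPH10B-LIKE and SPAG6, a central pair protein, had values from -1.71 to -0.99, none called, with all 72 hpa libraries below the whole tail pair. SPAG16, another central pair protein, had few reads: 75.1 and 59.7 in the whole tail, 52.5 and 22.0 in the 0 hpa pair, 37.5 in the 6 hpa library, 11.9 in the 15 hpa library, 24.6 and 14.4 in the 24 hpa pair, and 30.3 and 0 in the 72 hpa pair. The 0 came from the shallowest library, where 3 reads are worth 7.29 normalised reads, so its level there is below that value rather than absent.

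Tektins are filament proteins inside the doublet microtubules. TEKT3 stood at 1636 and 1559 normalised reads in the whole tail, 1887 and 1396 in the 0 hpa pair, 2504 in the 6 hpa library, 1695 in the 15 hpa library, 1421 and 514 in the 24 hpa pair, and 362 and 379 in the 72 hpa pair. Its libraries up to 15 hpa lay between 1396 and 2504, and the 72 hpa pair was the lowest, a 4.30-fold fall against the whole tail (log2 fold change -2.10, SE 0.426, limma adjusted p = 0.026). TEKT2 fell from 1283 ± 290 to 316 ± 48.1 (SD, n = 2 each; limma adjusted p = 0.044). TEKT1 and TEKT4 had log2 fold changes of -1.23 and -1.63 and were not called.

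Among the CFAP genes, CFAP45, a protein of the doublet lumen, stood at 1404 and 1160.05 normalised reads in the whole tail, 1207 and 779 in the 0 hpa pair, 1131 in the 6 hpa library, 835 in the 15 hpa library, 641 and 273 in the 24 hpa pair, and 259.7 and 306 in the 72 hpa pair. It fell 4.51-fold (log2 fold change -2.17, SE 0.41, limma adjusted p = 0.021). CFAP61, part of a complex at the spoke base, had a mean of 98.9 ± 18.9 in the whole tail and of 15.7 ± 4.96 at 72 hpa (SD, n = 2 each), a fall of 6.08-fold (SE of the log2 fold change 0.608, limma adjusted p = 0.039). CFAP97 and CFAP58 were not called, at -0.37 and -0.30, and the CFAP58 groups overlapped. Dynein assembly factors fold dynein arms in the cytoplasm before they enter the cilium. Those with a DNAAF symbol were not called: DNAAF3 had a log2 fold change of -0.88 and DNAAF2 of -0.15.

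**Figure D4:**
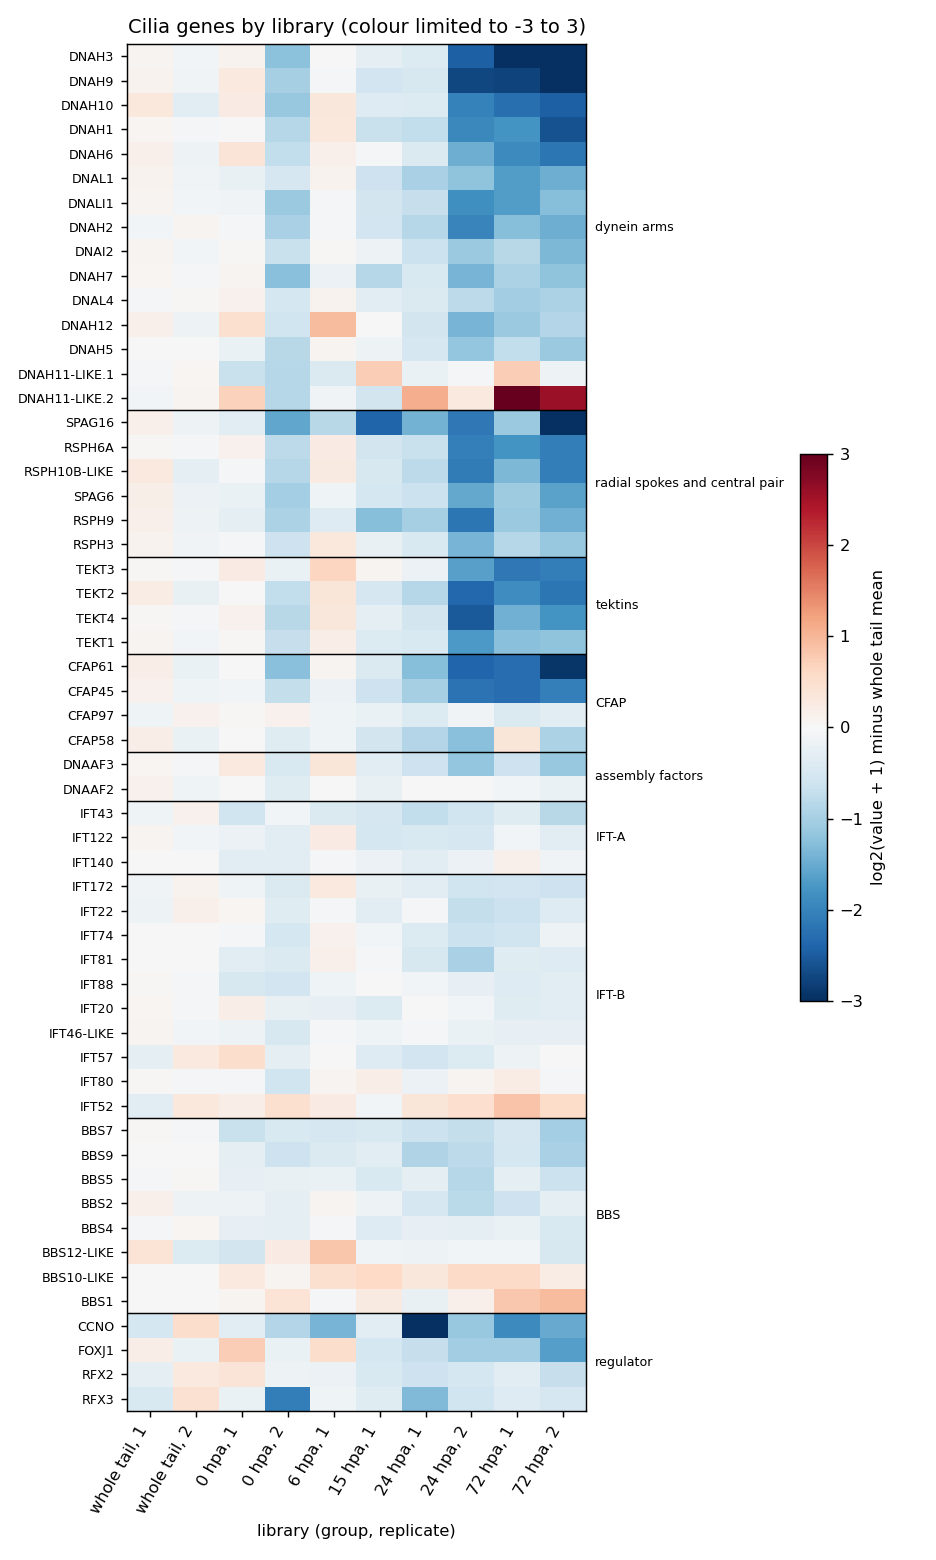
Log2(value + 1) of the 56 tested cilia genes (rows, grouped by role) in each of the 10 libraries (columns), minus the whole tail mean, with colours limited to the range -3 to 3. Most axonemal rows are blue in 24 hpa replicate 2 and both 72 hpa libraries, whereas IFT and BBS rows are pale throughout.

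No IFT gene was called at 72 hpa against the whole tail by limma, by edgeR or by DESeq2. At an unadjusted p under 0.05 in limma, 1 of 13 was lower and 1 higher, against 14.3% and 13.1% of all genes. Even so, 10 of 13 had lower values, and 9 lay wholly below the whole tail pair (27.5% of all genes). Wholly above it lay 1 IFT gene (4894 of 17896 genes). Their log2 fold changes lay between -0.60 and 0.71, with a median of -0.35, and their 95% intervals spanned -1.24 to 1.29. The lower bound of all 13 intervals was above the axonemal median of -1.48, which is itself an estimate from the same libraries. Against 0 hpa the lower bound of 12 IFT intervals was above the axonemal median of -0.93. Conversely, 25 of the 29 axonemal genes had a fitted value below the lowest IFT value. The difference between the sets was not tested, since genes of the same libraries are not replicates.

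IFT88, a core subunit of the IFT-B complex that carries cargo toward the tip, stood at 925 and 887 normalised reads in the whole tail, 650.2 and 612 in the 0 hpa pair, 822 in the 6 hpa library, 897 in the 15 hpa library, 851 and 768 in the 24 hpa pair, and 694 and 719 in the 72 hpa pair. The lowest pair was that of 0 hpa, and the 72 hpa values were below the whole tail pair without passing the test (log2 fold change -0.36, limma adjusted p = 0.25). IFT52, a partner of IFT88 in the IFT-B core, had the highest end of the set: 1108 and 1719 in the whole tail, 1581 and 1920.0 in the 0 hpa pair, 1626 in the 6 hpa library, 1314 in the 15 hpa library, 1764 and 1943 in the 24 hpa pair, and 2491 and 2039 in the 72 hpa pair. Its 72 hpa libraries were above all others, with a log2 fold change of 0.71 (95% interval 0.13 to 1.29, limma adjusted p = 0.12).

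The IFT-B gene of lowest value was IFT172, at -0.60 (95% interval -1.18 to -0.02, limma adjusted p = 0.17). IFT46-LIKE and IFT20, which shuttles between the Golgi and the cilium, had -0.25 and -0.35. IFT22, IFT57, IFT74, IFT80 and IFT81 lay between -0.52 and 0.09. In the IFT-A complex, which returns cargo to the cell body, IFT122, IFT140 and IFT43 had values of -0.21, 0.02 and -0.60, and none was called.

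BBS genes had a median of -0.39 at 72 hpa against the whole tail, and limma called none of 8. At an unadjusted p under 0.05 in limma, 2 were lower and 1 higher (14.3% and 13.1% of all genes). edgeR called none and DESeq2 called BBS1 (17.6% of all genes). Values of 5 of the 8 lay wholly below the whole tail pair (27.5% of all genes). Wholly above it lay 2 BBS genes (4894 of 17896 genes). BBS1, a BBSome subunit, stood at 349.7 and 358 normalised reads in the whole tail, 373 and 471 in the 0 hpa pair, 345 in the 6 hpa library, 428 in the 15 hpa library, 305 and 395 in the 24 hpa pair, and 616 and 688 in the 72 hpa pair. Its 72 hpa libraries were above all others (log2 fold change 0.88, SE 0.246, limma adjusted p = 0.066). BBS7 and BBS9, further subunits, had the lowest values, -0.76 and -0.75, and BBS2, BBS4 and BBS5 lay between -0.46 and -0.33. BBS10-LIKE and BBS12-LIKE, of the chaperonin-like group that helps the BBSome assemble, had 0.40 and -0.27.

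These calls depended on single libraries in a design with 4 residual degrees of freedom. Without whole tail replicate 1, limma called no cilia gene at 72 hpa against the whole tail (1.3% of all genes); without whole tail replicate 2 it called 1 (4.11%), without 72 hpa replicate 2 it called 1 (1.88%), and without 72 hpa replicate 1 it called 4 (7.02%). The gene called without whole tail replicate 2, and without 72 hpa replicate 2, was DNAL1. DESeq2 called 24 cilia genes (17.6% of all genes), the 13 above among them, and limma with no filter on low values called 1, DNAL1.

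Set against 0 hpa, the tissue beside the fresh wound, 72 hpa showed the same order of the sets. Limma called 7 of 56 cilia genes against 6.4% of all genes tested. DNAH3, DNAH6, DNAL1, TEKT3, CFAP45 and FOXJ1 fell (3.53% of all genes did) and DNAH11-LIKE.2 rose (2.87% of all genes did). Among these, DNAH3 had the largest fall, 8.29-fold (log2 fold change -3.05, SE 0.659, limma adjusted p = 0.039), and TEKT3 the next, 4.37-fold (log2 fold change -2.13, SE 0.426, limma adjusted p = 0.033). DNAL1 fell 2.30-fold (log2 fold change -1.20, SE 0.235, limma adjusted p = 0.031), and DNAH11-LIKE.2 rose 9.10-fold from its 0 hpa values of 33.7 and 10.99 (log2 fold change 3.19, SE 0.668, limma adjusted p = 0.036). The axonemal median was -0.93 and the IFT median 0.00, with no IFT gene called by limma, edgeR or DESeq2 and none at an unadjusted p under 0.05 (13.1% of all genes lower, 11% higher). Values of 23 of 29 axonemal genes and 3 of 13 IFT genes lay wholly below the 0 hpa pair, against 26.6% of all genes. Wholly above it lay 2 axonemal and 4 IFT genes (4836 of 17896 genes).

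This comparison shares the 72 hpa libraries with the one against the whole tail, so the values above are not separate evidence. The 7 calls were lost without 0 hpa replicate 1, 0 hpa replicate 2 or 72 hpa replicate 2. Without either whole tail library only DNAL1 kept its call. Each of these fits leaves 1 library in a group, and calls over all genes fell in them too. Over all fits without 1 replicate, the axonemal minus IFT difference of medians stayed between -1.31 and -0.70. Without 72 hpa replicate 1 none of the 7 remained, and SPAG16 was the single call (3.35% of all genes). With no filter on low values limma called 0, while DESeq2 called 15 (13.2% of all genes) with all 7 among them.

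At 24 hpa against the whole tail no cilia gene was called, against 1.11% of all genes; edgeR called none, DESeq2 called 5 (7.33% of all genes), and limma had 27 lower and none higher at an unadjusted p under 0.05 (8.73% and 8.84% of all genes). The axonemal median was -1.10 and 26 of 29 axonemal genes lay wholly below the whole tail pair (25.4% of all genes). DNAL1 had the smallest limma adjusted p, 0.081, at a log2 fold change of -1.10. The IFT median was -0.38, and 8 of 13 IFT genes lay wholly below the whole tail pair (25.4% of all genes). Wholly above it lay 1 IFT gene (4629 of 17896 genes). The 24 hpa libraries differed: relative to the whole tail, the axonemal median minus the IFT median was -0.22 in replicate 1 and -1.31 in replicate 2, against -0.93 and -1.14 in the 72 hpa libraries. The difference between the sets at 24 hpa therefore rested mostly on replicate 2.

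Earlier times gave no call. At 0 hpa against the whole tail limma and edgeR called 0 of 56 cilia genes and none of all genes (0%), and DESeq2 called 0 cilia genes beside 1.83% of all genes. Limma had 1 gene lower and none higher at an unadjusted p under 0.05 (3.79% and 4.16% of all genes). The axonemal and IFT medians were -0.37 and -0.29. At 6 hpa against 0 hpa limma and edgeR again called 0 (0% of all genes), and DESeq2 called 0 cilia genes beside 0.805% of all genes. Limma had none lower or higher at an unadjusted p under 0.05 (2.36% and 3.48% of all genes). There 27 of 29 axonemal genes had higher values (median 0.47), while 49.1% of all genes had lower values. Of the axonemal genes, 16 lay above both 0 hpa libraries, as did 8 of 13 IFT and 5 of 8 BBS genes, against 35% of all genes. In each of these sets 1 gene lay below both. DNAH12, an inner-arm heavy chain, had the largest axonemal difference at 1.00 (limma adjusted p = 0.88), from 1242 and 584 at 0 hpa to 1708 at 6 hpa. The IFT median was 0.28. Relative to the whole tail mean, the axonemal median was 0.02 and -0.83 in the 0 hpa pair and 0.08 in the 6 hpa library. The axonemal difference at 6 hpa thus rested mostly on the lower 0 hpa replicate 2.

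At 15 hpa against 0 hpa limma and edgeR called 0 cilia genes (0.363% of all genes by limma) and DESeq2 called 1 (4.65% of all genes); the axonemal median was -0.07 and the IFT median 0.06. At an unadjusted p under 0.05 none was lower and 1 higher (6.47% and 7% of all genes). At 24 hpa against 0 hpa limma and edgeR again called 0 (0.967% of all genes by limma) and DESeq2 called 1 (6.2% of all genes). Limma had 7 genes lower and none higher at an unadjusted p under 0.05 (8.28% and 8.49% of all genes). The axonemal median was -0.82, the IFT median -0.19, and 7 axonemal genes lay below both 0 hpa libraries (25.8% of all genes). Between 24 and 72 hpa limma and edgeR called 0 (0.0726% of all genes by limma) and DESeq2 called 2 (3.02% of all genes). Limma had 3 genes lower and 2 higher at an unadjusted p under 0.05 (5.4% and 5.29% of all genes). DNAH3 had a log2 fold change of -2.18 in that interval (SE 0.659, limma adjusted p = 0.3). Over all 6 groups at once, limma's F test called 0 cilia genes against 2.27% of all genes, and DNAL1 came nearest with an adjusted p of 0.053.

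Across the 10 libraries the axonemal genes varied together more closely than the transport genes. The median Pearson r of log2 values was 0.89 over the 406 pairs of axonemal genes, 0.28 over the 78 pairs of IFT genes and 0.21 over the 28 pairs of BBS genes. Between sets it was higher than within the IFT or BBS set. It was 0.44 over 377 pairs of axonemal with IFT genes and 0.57 over 232 pairs of axonemal with BBS genes. These values describe 10 libraries that all pairs share, with their depth, group differences and replicate differences. With the median of the other axonemal genes, 24 axonemal genes had r between 0.89 and 0.99. The exceptions were DNAH11-LIKE.2 (-0.52), DNAH11-LIKE.1 (-0.25), CFAP97 (0.40), CFAP58 (0.57) and SPAG16 (0.67). Among the regulators, r with the axonemal median was 0.88 for FOXJ1, 0.63 for RFX2, 0.40 for CCNO and 0.32 for RFX3.

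Other cilia genes whose symbols the choice did not match were read from lists. Of 60 symbols in a list of mostly axonemal parts under other names (docking complex, nexin links and central pair among them), 36 genes were tested. The list also held ZMYND10, PIH1D3, LRRC6 and DYX1C1, which are dynein assembly factors, and STK36, a kinase. ZMYND10 went from 586 and 512 normalised reads in the whole tail to 264 and 158 at 72 hpa. The values below are for the whole list. At 72 hpa against the whole tail their median log2 fold change was -1.27, 35 of 36 had lower values, 34 lay wholly below the whole tail pair (27.5% of all genes) and 2 were called lower (4.68% of all genes). CCDC39, a ruler protein that sets the spacing of inner arms and spokes, went from 489.7 and 465 normalised reads in the whole tail to 174 and 126 at 72 hpa (log2 fold change -1.68, SE 0.366, limma adjusted p = 0.032). LRRC48, a nexin-link protein, went from 320.0 and 235 to 66.8 and 38.9 (log2 fold change -2.40, SE 0.57, limma adjusted p = 0.041). Against 0 hpa all 36 had lower values, with a median of -0.78, and limma called 0 (12 lower at an unadjusted p under 0.05, against 13.1% of all genes).

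**Figure D5:**
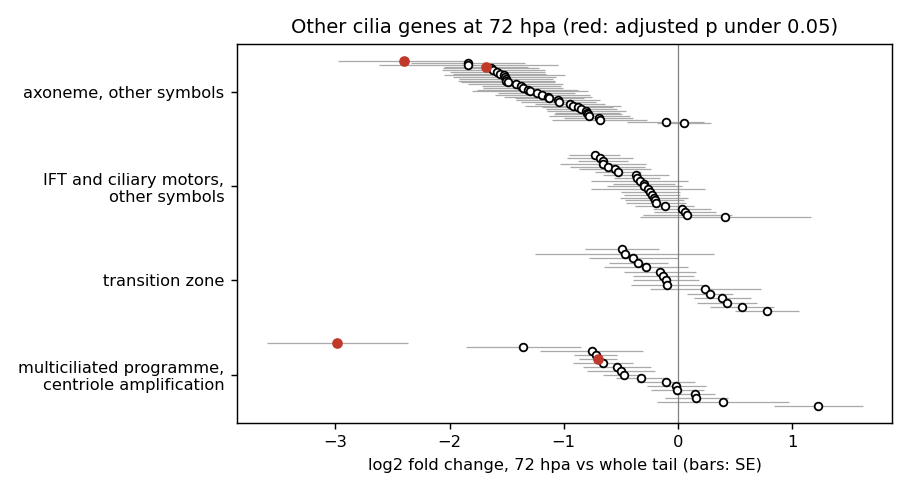
Fitted log2 fold change with its standard error (bars) at 72 hpa against the whole tail for cilia genes outside the symbol choice: mostly axonemal parts, with some assembly factors (36 genes), transport and motors (23 genes), transition zone (15 genes) and the multiciliated programme (17 genes). Red points have adjusted p under 0.05; the axonemal points centre on a median of -1.27 and the transport points on -0.29.

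The remaining lists had medians nearer 0 than the -1.27 of the axonemal list. The 23 tested genes of transport and ciliary motors under other symbols had a median of -0.29 against the whole tail, with none called by limma (3 lower at an unadjusted p under 0.05, against 14.3% of all genes). Of these 23, 19 had lower values, and 12 lay wholly below the whole tail pair (27.5% of all genes). Wholly above it lay 1 (4894 of 17896 genes). DYNC2H1, the heavy chain of the motor that runs IFT trains back, had -0.61 (limma adjusted p = 0.28). The 15 tested genes of the transition zone, the gate at the base of the cilium, had a median of -0.10 and none called, with 1 higher at an unadjusted p under 0.05 (13.1% of all genes). The 17 tested genes of the multiciliated programme and centriole amplification had a median of -0.47, and 2 were called lower (4.68% of all genes). At an unadjusted p under 0.05 in limma, 6 were lower and 1 higher (14.3% and 13.1% of all genes). Wholly below the whole tail pair lay 10 (27.5% of all genes), and wholly above it 2 (4894 of 17896 genes). MYB, a transcription factor acting early in multiciliated cells, went from 406 and 364 normalised reads in the whole tail to 92.7 and 24.3 at 72 hpa (log2 fold change -2.98, SE 0.617, limma adjusted p = 0.028). FGFR1OP, a centriolar protein, fell by 0.70 (SE 0.17, limma adjusted p = 0.044). TP73, a factor upstream of FOXJ1 in mouse multiciliated cells, rose against 0 hpa by 1.73 (SE 0.389, limma adjusted p = 0.043). Against the whole tail it was not called. TP73 was highest at 72 hpa replicate 1 (1317) and 15 hpa (1243). Its 72 hpa replicate 2 stood at 593, below the 24 hpa pair of 845 and 1191. MYB and TP73 are also used by other cell types.

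Markers of other cells moved in the same libraries, and their part in the axonemal result was not tested. Mucus and small secretory cell markers (9 genes of 13 symbols), from cells that lie among the multiciliated cells of the skin, summed to between 167800 and 178800 normalised reads in the whole tail, 94030 to 98660 at 0 hpa, 57610 at 6 hpa, 55880 at 15 hpa, 44920 to 63170 at 24 hpa and 5109 to 7992 at 72 hpa. Limma called 4 of their 8 tested genes lower at 72 hpa against the whole tail (4.68% of all genes). ITLN1, the mucus lectin, had a log2 fold change of -8.15 (limma adjusted p = 0.013). It supplied most of the whole tail sums (115788 and 119915 normalised reads), and its 72 hpa pair lay far apart, at 2319 and 72.9. AGR2, also of the list, stood at 3297 and 6043 in the whole tail and at 3652 and 4409 at 72 hpa. OTOGL, a mucin-like marker of the list, had low values in every library (0.298 to 26.2), and MUC2, a secreted mucin, was at 0 in 7 of the 10 libraries. Ionocyte markers (10 genes of 11 symbols) summed to between 41300 and 45130 in the whole tail, 88440 to 92880 at 0 hpa, 77920 at 6 hpa, 41390 at 15 hpa, 35100 to 57550 at 24 hpa and 23700 to 25090 at 72 hpa. SLC4A1, an anion exchanger of this list that is also in the erythroid list, was at 9797 and 28290.6 at 0 hpa; without it the sums were 37805 to 41743 in the whole tail, 60148 to 83083 at 0 hpa and 23301 to 24153 at 72 hpa. Limma called 2 of 9 tested ionocyte genes lower at 72 hpa against the whole tail (4.68% of all genes). Those called were FOXI1 and SLC4A1, and SLC4A1 counts again among the erythroid calls below. FOXI1, the factor that specifies ionocytes, fell by 2.35 against the whole tail (SE 0.55, limma adjusted p = 0.04).

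Spinal cord progenitor and floor plate markers (15 genes of 17 symbols), from cells that also carry cilia, summed to between 7788 and 11020 in the whole tail, 7795 to 10450 at 0 hpa, 6575 at 6 hpa, 4576 at 15 hpa, 4424 to 5233 at 24 hpa and 5911 to 6118 at 72 hpa. Limma called 4 of 15 lower at 72 hpa against the whole tail (4.68% of all genes), SHH and SOX3 among them (log2 fold changes -1.08 and -1.95). SOX2, which keeps neural progenitors, was at 1530 and 763 in the whole tail and at 1486 and 1220.03 at 72 hpa. In the same comparison 11 of 13 neuronal, 5 of 12 erythroid and 10 of 16 mitotic genes were called lower (4.68% of all genes), and 12 of 13 leukocyte genes and 2 of 19 skeletal muscle genes higher (4.61% of all genes). Replicates differed widely in some of these lists. Muscle markers summed to 638374 and 110149 in the whole tail pair and to 130914 and 670141 in the 72 hpa pair. Erythroid markers took 1.04% of reads in 0 hpa replicate 1 and 3.58% in replicate 2.

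In the authors' deposited table, whose test and threshold are not stated, 23 of the 30 axonemal genes carry the flag of differential expression (76.7%), against 19.2% of all 26550 genes. The authors' deposited table places 20 of the 30 (66.7%) in 1 expression cluster that holds 2.02% of all genes, and FOXJ1 in the same cluster. No IFT gene carries the flag in the authors' deposited table. These marks were made from the same libraries and are not separate evidence.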

How the data were processed

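Libraries were TruSeq preparations of total RNA, per the labels' protocols. Tools named in the submitters' processing notes, with no role or order, are HTSeq, DESeq2, R 3.2.0, SAMtools 1.1, TopHat2 2.0.13 and Trim Galore 0.3.3. The sources used here give neither genome build, annotation nor treatment of strand, so coordinates and sequences are left out; genes known only by a locus identifier could not match the symbol choice. The authors deposited, for each gene, a normalised signal and their own cluster and flag of change. Each deposited value was a whole number of reads times a constant of its library (100% of values at a tolerance of 0.01), and these recovered reads give the depths.

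Limma 3.58.1 (R 4.3.3, variance trend) was fitted to log2(value + 1) of the deposited signal for 17896 genes over all 10 libraries and 6 groups, with 4 residual degrees of freedom; 6 and 15 hpa borrow the spread of the duplicated groups. Fold changes on that log2(value + 1) scale understate changes of low genes. Calls are Benjamini-Hochberg adjusted p under 0.05 over all genes. edgeR 4.0.16 and DESeq2 1.42.0 on recovered reads, other filters, pseudocounts and sets of libraries were alternatives. The fits were also run on simulated counts drawn independently for each gene. Those counts held no shift shared by genes of a replicate, so they cannot gauge how such shifts affect the calls. No replicate pair was a duplicate deposit: the chi-square of its reads over genes was 88.4 to 203.9 per degree of freedom. The symbol choice, roles and lists were set with earlier results of these data known. Genes named were the regulators, the members of highest mean value and at the ends of each role, and the largest called changes; others named were chosen after their values were seen. Of the 57 genes, 51 matched a symbol in a RefSeq gene table of assembly UCB_Xtro_10.0. Floors of 3 reads cover counting error only.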

Additional observations from a re-analysis of the deposited data

How the results depend on the processing

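No result changed direction under any alternative that kept all libraries. With DESeq2 the count of cilia genes called, with the share of all genes called in brackets, was 1 for 15 against 0 hpa (4.65%), 1 for 24 against 0 hpa (6.2%), 15 for 72 against 0 hpa (13.2%), 2 for 72 against 24 hpa (3.02%), 5 for 24 hpa against the whole tail (7.33%), 24 for 72 hpa against the whole tail (17.6%) and 17 over the 6 groups (19.6%). With no filter on low values it was 0 for 72 against 0 hpa (0.961%) and 1 for 72 hpa against the whole tail (2.53%); the fold changes there were those of the filtered fit. edgeR with either scaling called 7 (5.59% to 5.62%) and 12 (8.67% to 8.8%) in those comparisons and lost DNAH10. A pseudocount of 5 kept all 20 single calls.

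Fits without 1 replicate of the duplicated groups gave between 0 and 10 calls for 72 against 0 hpa (0.855% to 5.16% of all genes), 0 and 15 for 72 hpa against the whole tail (1.3% to 8.26%), 0 and 3 over the 6 groups (0.414% to 1.82%), and 0 and 0 in the other comparisons. The axonemal minus IFT difference of medians ranged from -1.21 to -0.93 for 72 hpa against the whole tail, -1.31 to -0.70 for 72 against 0 hpa, -1.31 to -0.22 for 24 hpa against the whole tail and -1.08 to -0.25 for 24 against 0 hpa. It changed sign for 72 against 24 hpa (-0.88 to 0.0029), 0 hpa against the whole tail (-0.48 to 0.16), 6 against 0 hpa (-0.10 to 0.47) and 15 against 0 hpa (-0.40 to 0.27). The spread of this difference between replicates was 0.455 (SD, 4 degrees of freedom).

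Over all genes tested, deviations of same-numbered libraries correlated between -0.135 and 0.271 across pairs of duplicated groups. Such values cannot settle whether replicate numbers pair the libraries, and most axonemal genes were higher in replicate 1 in every duplicated group. A fit with the replicate number as a block, over the 8 duplicated libraries, called 13 cilia genes for 72 against 0 hpa (6.98% of all genes), 19 for 72 hpa against the whole tail (10.8%) and 13 over the groups (5.64%). Depth limits DNAH14 and SPAG16, each with 0 reads in at least 1 library. It also limits called genes: CFAP61 had 5 reads in 72 hpa replicate 2, and DNAH11-LIKE.2 had 18 and 6 in the 0 hpa pair. Their fold changes are therefore uncertain.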

Other observations

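A search of 8739 genes with a symbol and a mean of at least 100 normalised reads, run after the values had been seen, listed the 25 genes outside the symbol choice whose log2 values over the 10 libraries were most like the axonemal median. Their Pearson r ran from 0.971 to 0.994, and 9 of the 25 were already in the lists used above. CCDC96 came first, at 403 and 308 normalised reads in the whole tail, 356 and 194 in the 0 hpa pair, 408 in the 6 hpa library, 256 in the 15 hpa library, 205 and 85.3 in the 24 hpa pair, and 129 and 105 in the 72 hpa pair. CCDC108 stood at 935 and 706 in the whole tail and at 264 and 211 at 72 hpa, TEX26 at 401 and 323 against 159 and 129, and CCDC63 at 1631 and 1385 against 506 and 425. For all 25 the 3 lowest libraries were 24 hpa replicate 2 and both 72 hpa libraries. That follows from the choice, since the axonemal median was lowest in the same 3 libraries. These genes share the 10 libraries with the axonemal genes, and the order among them is a description.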
